A study of Mus musculus with 4 samples.

Results

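Gene-desert ATAC-seq peaks are stretches of ATAC-seq signal, taken as a sign of open chromatin, that lie far from any protein-coding gene. They were taken by position alone: the midpoint of a peak had to lie on an autosome, outside every protein-coding RefSeq gene, and more than 100 kb from the nearest end of one. Of the 87948 peaks in the deposited table, 5764 met this rule (6.55%), and they fell into 887 deserts, a desert being the stretch between 2 neighbouring protein-coding genes. Hearts of mice at postnatal day 14 were assayed by ATAC-seq, in which a transposase inserts sequencing adapters where DNA is accessible, so that reads pile up over open regulatory elements. The study compared 2 wild-type libraries with 2 libraries from Carm1 mutant hearts. All 4 were whole heart tissue of the same age. The labels give neither the Carm1 allele, the cells in which it was altered, nor the strain or sex, and they do not say that replicates came from separate animals, so p-values measure only the spread between these samples, which may be technical.

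Gene deserts are long intervals that lack protein-coding genes, and many of them flank developmental regulators. Sequences inside them can act as enhancers, which bind transcription factors and reach a promoter over a long distance by looping, often in a single cell type. Carm1 is an arginine methyltransferase that methylates histone H3 and other chromatin proteins and works as a coactivator of transcription factors. A flanking gene is named here only as a neighbour, because no contact between a peak and a gene was measured.

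The term desert refers to protein-coding genes only. A noncoding gene of the RefSeq table contained 1405 of the 5764 peaks (24.4%), in 1376 cases a long noncoding RNA gene, and 711 peaks lay more than 100 kb from the end of a gene of any type. Among those noncoding genes are Mir99ahg on chromosome 16 and Mir100hg on chromosome 9, whose transcripts host clusters of small regulatory miRNAs. Mature miRNAs of both clusters are printed because desert peaks inside both hosts were higher in the mutant (values further on). These hosts were chosen after their values were seen. The list is not complete, as a let-7 member of the Mir100hg cluster had no mature entry in the sequences used. The sequences are from RefSeq (GRCm38.p6), written 5′ to 3′, with the seed, bases 2 to 8, in capitals. The seed is the stretch that pairs with a target RNA.
miR-99a-5p (Mir99ahg, chr16:77598940-77598961, plus strand): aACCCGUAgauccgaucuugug
let-7c-5p (Mir99ahg, chr16:77599672-77599693, plus strand): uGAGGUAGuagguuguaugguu
miR-125b-5p (Mir99ahg, chr16:77646279-77646300, and Mir100hg, chr9:41581940-41581961, plus strand): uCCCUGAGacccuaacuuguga
miR-100-5p (Mir100hg, chr9:41531437-41531458, plus strand): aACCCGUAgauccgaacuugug
The miR-99a and miR-100 sequences share the seed ACCCGUA, and miR-125b-5p has the same mature sequence in both clusters.

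The promoter windows of 3 noncoding genes are printed for the same purpose: the whole window, 250 bases before to 50 after the gene's start, lay inside a desert peak that was called between the genotypes. They are from RefSeq (GRCm38.p6), 5′ to 3′ on the gene's strand, which is the plus strand in each case. Capitals mark matches on either strand to TGANTCA, a site of the AP-1 family, or to CCAAT, the CCAAT box (ATTGG on the other strand).
4732465J04Rik (chr10:95772883-95773182, peak lower in the mutant): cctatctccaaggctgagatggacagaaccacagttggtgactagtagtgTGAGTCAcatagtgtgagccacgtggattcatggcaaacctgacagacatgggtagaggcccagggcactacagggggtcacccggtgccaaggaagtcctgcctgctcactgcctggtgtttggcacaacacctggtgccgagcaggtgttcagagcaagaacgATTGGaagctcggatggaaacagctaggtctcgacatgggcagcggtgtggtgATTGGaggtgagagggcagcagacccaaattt
Gm33699 (chr9:61031981-61032280, peak lower in the mutant): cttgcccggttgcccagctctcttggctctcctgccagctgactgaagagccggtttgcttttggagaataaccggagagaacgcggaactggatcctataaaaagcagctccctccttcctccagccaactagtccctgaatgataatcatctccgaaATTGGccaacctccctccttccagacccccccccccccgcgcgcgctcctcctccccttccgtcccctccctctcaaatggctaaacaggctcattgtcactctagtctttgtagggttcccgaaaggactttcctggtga
Gm33321 (chr14:58300552-58300851, peak higher in the mutant): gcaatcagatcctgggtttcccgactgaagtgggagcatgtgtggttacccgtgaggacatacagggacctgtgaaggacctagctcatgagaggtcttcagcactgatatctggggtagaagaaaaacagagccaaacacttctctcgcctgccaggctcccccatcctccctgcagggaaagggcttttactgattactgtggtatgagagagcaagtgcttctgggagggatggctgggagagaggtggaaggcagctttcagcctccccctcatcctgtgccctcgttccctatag

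Desert peaks were narrower and weaker than the average peak. Their width ranged from 150 to 3905 bp with a median of 421 bp, against 532 bp over all peaks, and together they covered 2.95 Mb. The median level was 4.19 CPM (counts scaled to a common library size) against 5.54 over all peaks; per kilobase of peak the medians were 9.89 and 10.5 CPM. Most lay near the distance limit: 3044 (52.8%) were 100 to 200 kb from a gene end, the median distance was 192 kb, 521 lay beyond 500 kb and 92 beyond 1000 kb.

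Total counts in all peaks were 17508230 and 19091969 in the wild-type libraries and 16740589 and 15945420 in the mutant libraries, and the median count per desert peak was 74, 87, 64 and 67 in the same order. Desert peaks held 4.67% to 5.14% of the counts of a library. Across desert peaks, the strongest left out, the log2 levels correlated more closely within a genotype (Pearson r of 0.919 between the wild-type and 0.897 between the mutant libraries) than between genotypes (0.779 to 0.810). These correlations are a description over peaks that share their libraries. The labelled tissue was checked at gene ends: 9 of 10 cardiomyocyte markers had a gene-end peak, at most 1 kb away (Myl7 had none), with a summed level of 699 to 907 CPM, while of 2 lists from outside the heart, 2 of 5 skeletal muscle markers had one and summed to 2.89 to 4.62 CPM, and 2 of 4 hepatocyte markers summed to 17.6 to 24.0 CPM. In whole tissue, fewer cells of a type and less accessibility per cell cannot be told apart.

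More desert peaks were lower than higher in the mutant. With edgeR's quasi-likelihood test and a Benjamini-Hochberg adjusted p under 0.05 over all peaks, 349 of 5764 desert peaks fell (6.05%), where 2.45% of all peaks fell. The same test called 229 desert peaks higher (3.97%), where 3.05% of all peaks rose, and 5186 did not pass. The median fold of the called peaks was 2.48 for those that fell and 2.34 for those that rose. The median log2 fold change of all desert peaks, mutant over wild type, was -0.16 (quartiles -0.54 and 0.24), against -0.00 over all peaks. Both mutant libraries lay below both wild-type libraries in 2132 desert peaks (37.0%; 25.7% of all peaks) and above both in 1201 (20.8%; 25.8% of all peaks).

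Shares at other positions relative to genes were as follows. Of the 45445 peaks within protein-coding genes and more than 1 kb from their ends, 2.95% were higher and 2.62% lower, with a median log2 fold change of -0.02. Peaks outside genes but 1 to 100 kb from a gene end numbered 21867, and 3.97% of them were higher and 2.44% lower, with a median log2 fold change of 0.04. Among the 13536 peaks within 1 kb of a gene end, 1.43% were higher and 0.377% lower. No test of the members as a group was made, so these shares are a description.

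The share of lower calls was larger farther from genes. It was 1.53% at 1 to 10 kb from a gene end, 2.48% at 10 to 50 kb and 4.17% at 50 to 100 kb, where 3.76% were higher and the median log2 fold change was -0.07. Within deserts it went on to 4.79% at 100 to 150 kb, 5.93% at 200 to 300 kb, 7.84% at 300 to 500 kb and 8.86% at 500 to 1000 kb. The share of higher calls had no steady course over the same range: 4.08% at 1 to 10 kb, 3.25% at 200 to 300 kb, 5.26% at 300 to 500 kb and 4.43% at 500 to 1000 kb. The 92 peaks beyond 1000 kb had 11 calls in each direction. The median log2 fold change went from 0.10 at 1 to 10 kb to -0.10 at 100 to 150 kb and -0.27 at 500 to 1000 kb. The median level in these bins was 5.21, 4.28 and 3.85 CPM.

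**Figure D1:**
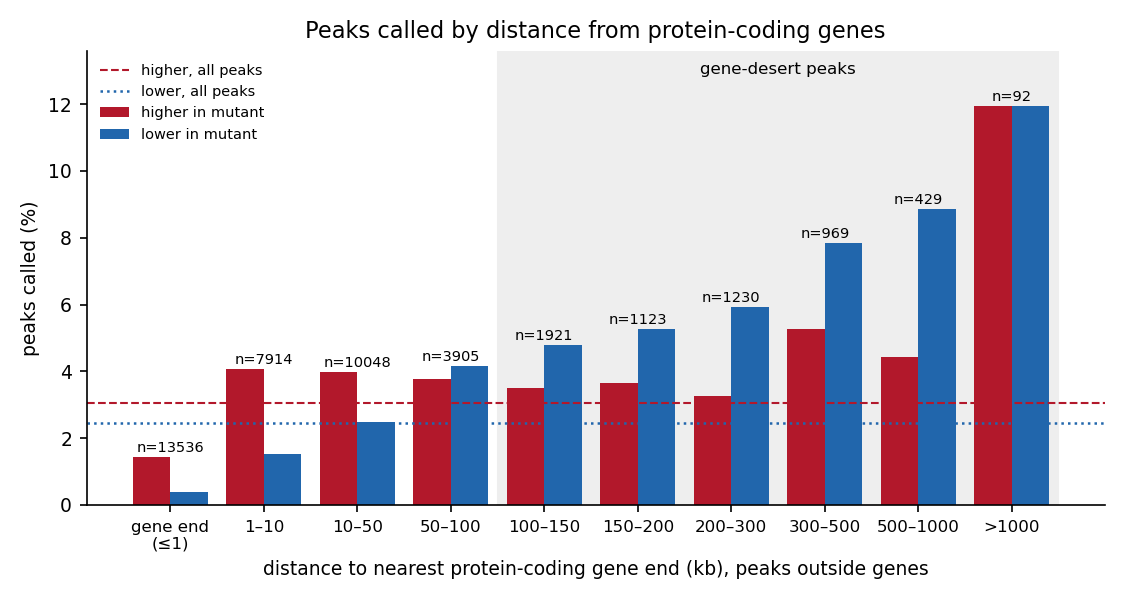
Percent of peaks called higher (red) or lower (blue) in the mutant, by distance in kb from the nearest protein-coding gene end; n is the number of peaks in a bin, the shaded bins are gene deserts and the horizontal lines are the shares over all peaks (3.05% and 2.45%). Blue bars grow from 0.377% at gene ends to 8.86% at 500 to 1000 kb.

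Each library was also described by 1 value, the median over desert peaks of its log2 CPM after centring every peak on its mean over the 4 libraries. This was 0.03 and 0.13 in the wild-type libraries and -0.14 and -0.01 in the mutant libraries. For desert peaks beyond 500 kb it was 0.04 and 0.19 against -0.16 and -0.07. The genotypes did not overlap, but the second wild-type library stood highest and the first mutant library lowest. Over all desert peaks the spread within a genotype was larger than the gap between the nearest libraries of the 2 genotypes. The counts of calls depended on single libraries. Without wild-type replicate 2, 69 desert peaks fell (1.2%; 0.414% of all peaks) and 65 rose (1.13%; 0.73% of all). Without wild-type replicate 1, 167 fell (2.90%; 1.0% of all) and 111 rose (1.93%; 1.17% of all). Leaving out mutant replicate 2 gave 619 lower (10.7%; 4.7% of all) and 329 higher (5.71%; 4.9% of all), and leaving out mutant replicate 1 gave 368 lower (6.38%; 3.11% of all) and 297 higher (5.15%; 4.78% of all). DESeq2 on all 4 libraries called 162 lower (2.81%; 1.15% of all) and 123 higher (2.13%; 1.55% of all). Some desert peaks were called in each direction with all libraries and whichever was left out, but the matching share over all peaks was not counted.

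**Figure D2:**
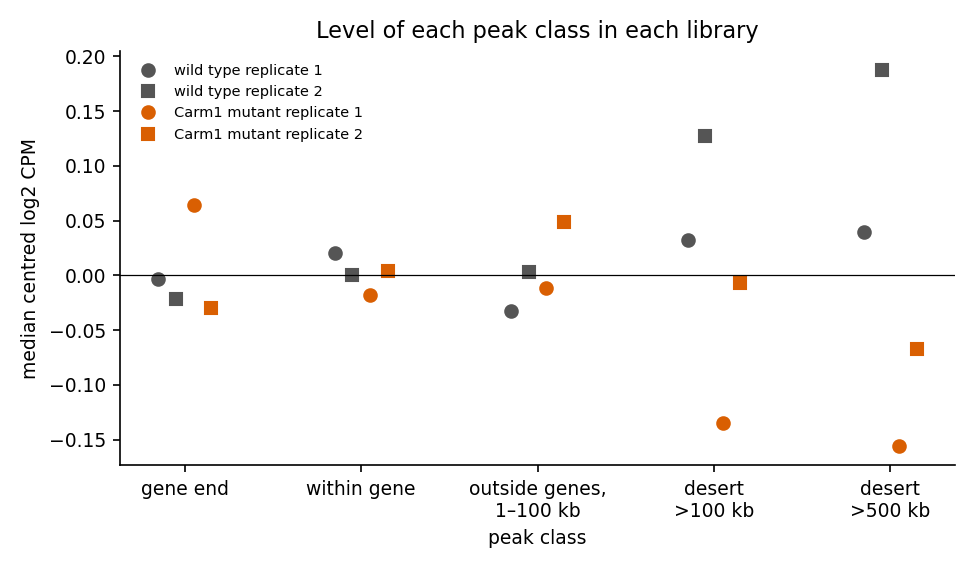
Median of the centred log2 CPM (vertical axis) in each of the 4 libraries for 5 classes of peak; grey points are wild type, orange points Carm1 mutant, circles replicate 1 and squares replicate 2. For desert peaks the wild-type libraries lie at 0.03 and 0.13 and the mutant libraries at -0.14 and -0.01.

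Strong desert peaks ran against this trend. Of the 98 desert peaks with a mean above 32 CPM, 25 (25.5%) were called higher and 3 (3.06%) lower, while among the 421 weakest, at up to 2 CPM, 3.09% were higher and 14.7% lower. The weakest peaks of other classes also had medians below 0: at up to 2 CPM, peaks within genes were higher in 2.93% and lower in 6.55%, with a median log2 fold change of -0.63, and peaks 1 to 100 kb from genes were higher and lower in 5.18% each, with a median of -0.56, against -0.79 in deserts. Peaks 1 to 100 kb from genes and above 32 CPM were called higher in 6.03% of 696 cases. The 25 strong peaks lay on 12 chromosomes and their log2 fold changes ran from 0.40 to 1.44. The first wild-type library exceeded the second in 23 of the 25, with a median ratio of 1.35, and without the second wild-type library 3 strong desert peaks were called higher. Among all desert peaks that median ratio was 0.937. Peaks 1 to 100 kb from genes, above 32 CPM and called higher, numbered 42. The first wild-type library exceeded the second in 33 of these 42, with a median ratio of 1.28.

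**Figure D3:**
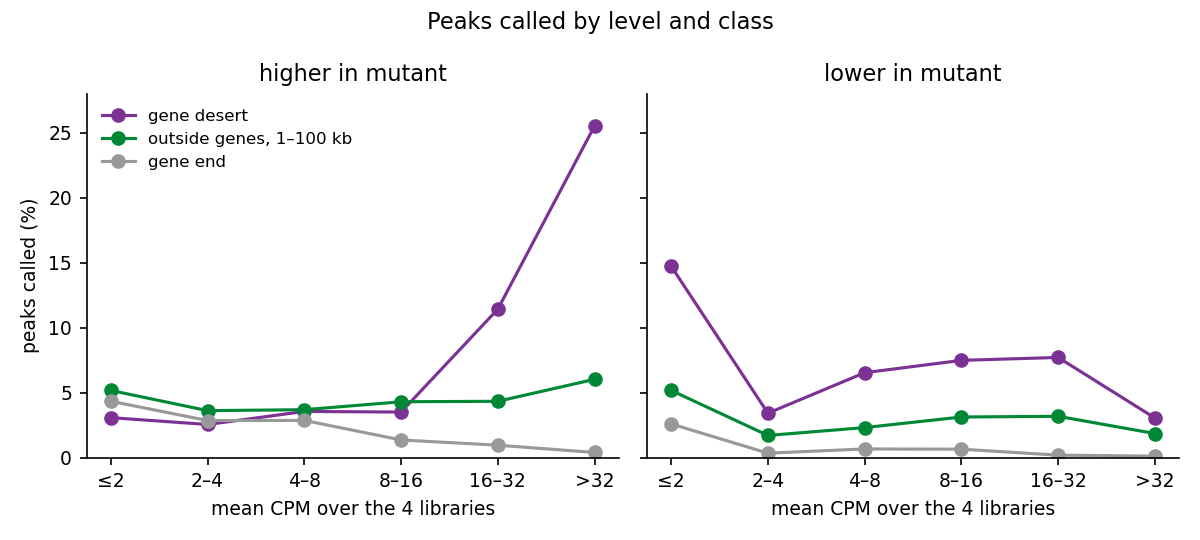
Percent of peaks called higher (left) or lower (right) in the mutant, by mean CPM over the 4 libraries, for gene deserts (purple), other peaks 1 to 100 kb outside genes (green) and gene ends (grey). The purple line reaches 25.5% higher above 32 CPM, and 14.7% lower at up to 2 CPM.

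The highest desert peak stood far above every other. It lay on chromosome 16, 61670380 to 61670970, between Epha6, an ephrin receptor gene, and Nsun3, a mitochondrial tRNA methyltransferase gene, 1060 kb from the nearer. Its levels were 8454 and 5974 CPM in the wild type and 8283 and 10726 CPM in the mutant, and it alone took 0.606% to 1.07% of a library's counts. The genotypes overlapped, and the adjusted p of 0.0453 became 0.517 without wild-type replicate 2. The next strongest, on chromosome 3 between Pgrmc2 and Jade1 (41253497 to 41256155), had 571 and 417 CPM in the wild type and 854 and 739 CPM in the mutant. Both mutant libraries lay above both wild-type ones (log2 fold change 0.69, SE 0.12, adjusted p = 0.00327), and this call was lost without wild-type replicate 2.

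Single desert peaks changed by far more than the medians. The 12 most significant rises and 12 most significant falls were chosen at most 1 per desert and only where the genotypes did not overlap. Their log2 fold changes were 1.16 to 3.31 and -2.57 to -1.46. All 24 were called whichever library was left out, with adjusted p up to 0.0187, and under every alternative tried. They lay 107 to 1298 kb from the nearest protein-coding gene.

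The higher peak with the smallest p lay on chromosome 13, 110928974 to 110930039, between Plk2, a polo-like kinase gene, and Actbl2, 326 kb from the nearer. It had 10.1 and 13 CPM in the wild type and 33.5 and 48.0 CPM in the mutant, a log2 fold change of 1.82 (SE 0.20, adjusted p = 0.000129). The lower mutant library was far above the higher wild-type library, though the choice of these peaks required no overlap. A peak beyond Pvt1 on chromosome 15, 62328198 to 62329252, 338 kb from Myc, the proto-oncogenic growth regulator, had 20.3 and 23.1 CPM against 50.6 and 57.0 CPM (log2 fold change 1.31, SE 0.15, adjusted p = 2.00e-04). A peak 127 kb from Bmp4, a secreted signal of heart and mesoderm development, on chromosome 14, 46517308 to 46517595, had 0.453 and 0.413 CPM against 4.26 and 4.42 CPM. It was near the floor of the data in the wild type and showed the largest rise of the 12 (log2 fold change 3.31, SE 0.43, adjusted p = 0.000366). A peak 116 kb from Ccn2, which encodes a secreted matricellular protein, on chromosome 10, 24478782 to 24479610, had 17.1 and 16.9 CPM against 35.8 and 40.4 CPM.

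The other higher peaks had flanking genes of varied roles. Between Sntb1 and Has2, a hyaluronan synthase gene, a peak had 4.81 and 5.01 CPM in the wild type and 16.8 and 14.6 CPM in the mutant. Between Bcl6, a transcriptional repressor gene, and Lpp the levels were 2.49 and 2.12 CPM against 9.18 and 8.96 CPM. Between Cd83 and Jarid2, which encodes a partner of the Polycomb complex, they were 4.24 and 3.04 CPM against 11.6 and 12.4 CPM. In these 3 the mutant libraries were close to each other and well above the wild type, where the choice required no overlap. The remaining ones flanked Dnah5 and Ctnnd2, Zfp516 and Tshz1, Agtr1b and Tbl1xr1, Gadd45g and Diras2, and Usp25 and Cxadr.

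The lower peak with the smallest p lay 113 kb from Vegfa, the gene of the main endothelial growth factor, on chromosome 17, 45903263 to 45903830. It had 14.9 and 15.2 CPM in the wild type and 4.93 and 3.28 CPM in the mutant, a log2 fold change of -1.87 (SE 0.25, adjusted p = 0.000494). Between Rims1 and Ppp1r14bl on chromosome 1, 22930994 to 22931793, levels were 22.9 and 22.1 CPM against 8.58 and 7.76 CPM, with a log2 fold change of -1.46 (SE 0.20). The wild-type libraries agreed closely at both peaks, and both mutant libraries were far below them. A peak 402 kb from Cdh5, the gene of the endothelial adhesion protein VE-cadherin, on chromosome 8, 103699016 to 103699536, had 6.62 and 7.64 CPM against 1.58 and 1.89 CPM (log2 fold change -2.03, SE 0.31, adjusted p = 0.00139). Between Nudt12 and Efna5, an ephrin ligand gene, a peak 1298 kb from Efna5, the nearer of the pair, had 9.96 and 10.9 CPM against 2.80 and 2.65 CPM.

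Values of 3 further lower peaks are given. The peak between Csmd3 and Trps1, a GATA-type repressor gene, had 12.7 and 17.3 CPM in the wild type and 2.31 and 4.61 CPM in the mutant. Between Nyap2 and Irs1, the gene of an insulin receptor substrate, the levels were 7.58 and 11.5 CPM against 2.55 and 1.2 CPM. Between Igfbp3, an insulin-like growth factor binding protein gene, and Tns3 they were 14.1 and 19.5 CPM against 5.17 and 5.49 CPM. At all 3 the higher mutant library lay below the lower wild-type library, which the choice of these peaks required. The others flanked Klf12 and Prr30, Cobl and Pom121l12, Saraf and Dusp4, Adam28 and Stc1, and Csnk1g3 and Zfp608.

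**Figure D4:**
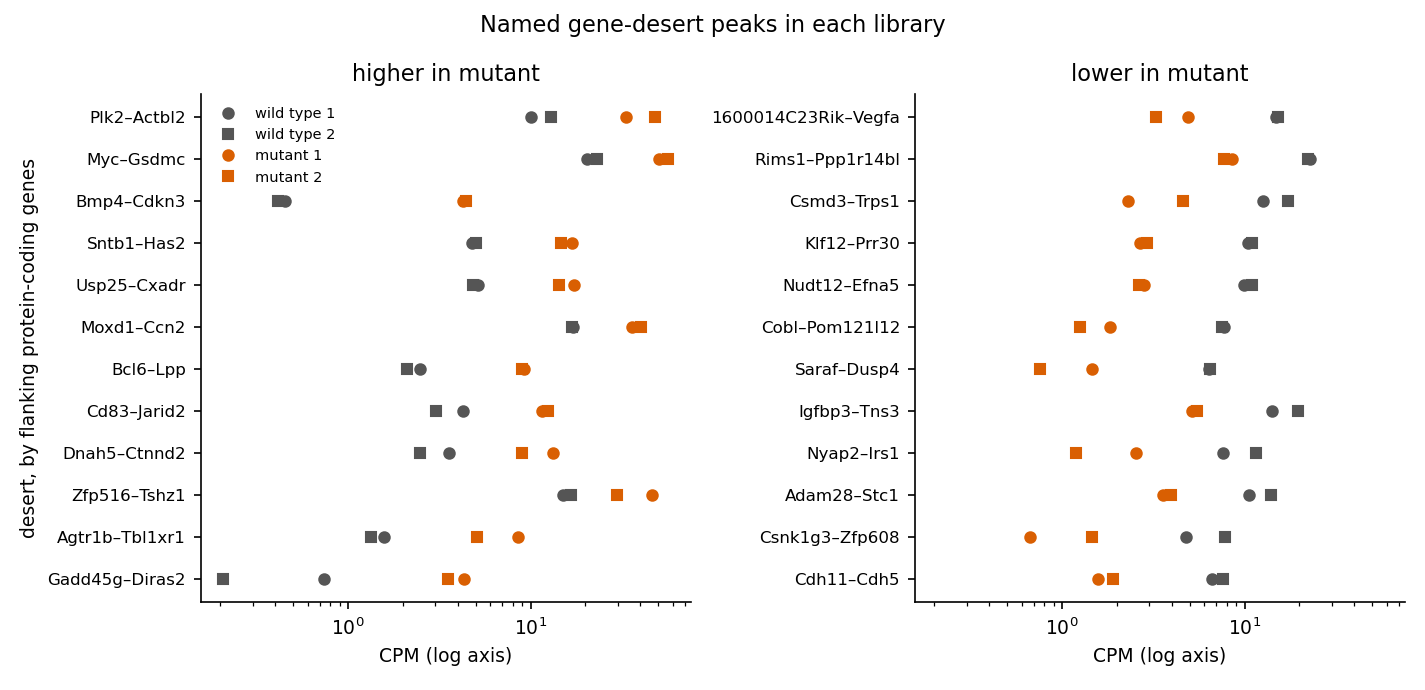
CPM on a log axis of the 12 desert peaks with the most significant rise (left) and the 12 with the most significant fall (right), 1 per desert, named by the flanking protein-coding genes; grey is wild type, orange Carm1 mutant, circles replicate 1 and squares replicate 2. Grey and orange points do not overlap in any row, which the choice of these peaks required, and the Bmp4 peak shows 0.453 and 0.413 CPM against 4.26 and 4.42 CPM.

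Calls were spread over many deserts. Of 887 deserts, 324 held at least 1 called peak, against 202 deserts with a single peak and 60 with 20 or more. The 130 deserts with 2 or more calls comprised 51 whose calls were all lower, 33 whose calls were all higher and 46 with both. Close neighbours had similar fold changes. The log2 fold changes of neighbours correlated at r = 0.54 over 719 pairs at most 2 kb apart, 0.31 at 2 to 5 kb, 0.19 at 5 to 20 kb and 0.14 at 20 to 100 kb, as a description in which reads near a shared border and a shared library may enter. Without the desert at the start of chromosome 3, described next, r was 0.50 for the closest pairs, and 61 of 64 pairs of called neighbours within 100 kb had the same direction. Among peaks 1 to 100 kb from genes, r was 0.35 for pairs at most 2 kb apart. Over the same spans of distance, called neighbours there had the same direction in 40 of 43, 26 of 29, 43 of 47 and 10 of 15 pairs. In deserts without the chromosome 3 start these were 17 of 17, 9 of 9, 13 of 14 and 22 of 24.

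The desert with most calls was the stretch before Hnf4g at the start of chromosome 3, where 17 of 22 peaks were called higher. Summed over the 22 peaks the wild-type libraries had 275 and 188 CPM and the mutant libraries 327 and 825 CPM. Mutant replicate 2 was the single high library, and 4 peaks were called without it, against 3 without wild-type replicate 2 and 4 with DESeq2. One of the called peaks, at 3001597 to 3003602, had 38.6 and 29.2 CPM against 50.9 and 122 CPM.

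In 4 of the deserts with most calls, most calls were lower. Deserts picked for their calls tend to have sums that separate, and the share of all deserts with separated sums was not counted. Both mutant libraries lay below both wild-type libraries in 37.0% of single desert peaks. Between Adamts5, an aggrecanase gene, and N6amt1 on chromosome 16, 8 of 34 peaks fell, with log2 fold changes of -1.92 to -0.84 and a median of -0.45 over the desert. The summed level was 231 and 257 CPM in the wild type and 178 and 191 CPM in the mutant. Between Pik3r1, the regulatory subunit gene of PI3-kinase, and Cd180 on chromosome 13, 7 of 35 peaks fell, with sums of 245 and 288 CPM against 216 and 204 CPM. In both deserts the sums did not overlap between genotypes, but the calls rested on the wild-type libraries: without replicate 2 they numbered 0 and 1, without replicate 1 they numbered 1 and 5, and DESeq2 called 2 in each. Between Gm40892 and Flrt2, an adhesion protein gene, on chromosome 12, 6 of 16 peaks fell and 1 rose. The peak at 94562207 to 94562569 there had 2.89 and 3.20 CPM in the wild type and 0.487 and 0.315 CPM in the mutant (log2 fold change -2.90, SE 0.47, adjusted p = 0.00185). Between Mpdz and Nfib, a nuclear factor I gene, on chromosome 4, 5 of 39 peaks fell and 2 rose. Without wild-type replicate 2 the lower calls there numbered 1 of 16 and 0 of 39.

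The deserts with most peaks were not those with most calls. The largest lay between Cd83 and Jarid2 and held 64 peaks, of which 2 rose and 1 fell. Between Gm5148 and Ankrd50, 1 of 56 peaks rose; it had 0.339, 0.155 and 0.912 CPM in 3 libraries and 8.20 CPM in mutant replicate 2 alone. Between Slc4a3 and Epha4, an ephrin receptor gene, 3 of 46 peaks fell, at a median log2 fold change of -0.42. Between Myc and Gsdmc, a desert that also holds the long noncoding gene Pvt1, 6 of 55 peaks rose, and the summed level was 327 and 356 CPM against 431 and 442 CPM. The sum was higher in both mutant libraries, with a median log2 fold change of 0.27; 3 peaks were called without wild-type replicate 1 and 1 without replicate 2. On the other side of Myc, 2 of 25 peaks rose and 1 fell.

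**Figure D5:**
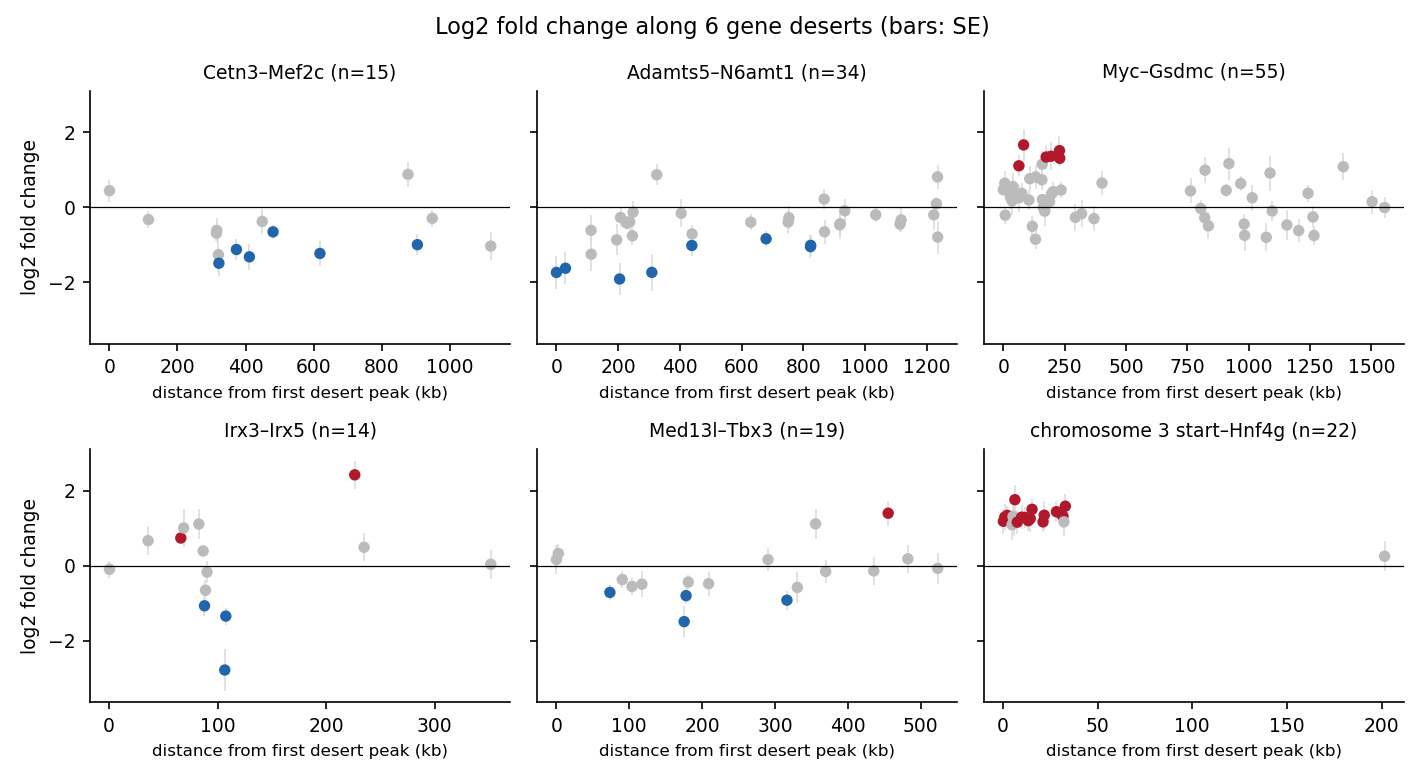
Log2 fold change (mutant over wild type; bars are standard errors) of every peak in 6 deserts against the distance in kb from the first desert peak; red peaks were called higher, blue lower and grey not called. Calls are lower in the Cetn3 to Mef2c and Adamts5 to N6amt1 deserts, higher in the Myc to Gsdmc desert and at the start of chromosome 3, and of both directions beside Irx3 and Tbx3.

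Deserts were grouped by lists of flanking genes, for which counts are a description only. Cardiac and mesoderm regulators flanked 35 deserts (30 of 47 listed genes) with 264 peaks, of which 21 fell (7.95%) and 14 rose (5.30%), at a median log2 fold change of -0.30. Vascular regulators flanked 11 deserts (11 of 25 genes) with 130 peaks, of which 12 fell (9.23%) and 0 rose, with a median of -0.36. Neural adhesion and synapse genes flanked 51 deserts (39 of 55 genes) with 227 peaks, of which 24 fell (10.6%) and 9 rose. Mesenchymal regulators flanked 45 deserts (35 of 50 genes) with 409 peaks, of which 24 fell (5.87%) and 17 rose (4.16%). Deserts with no listed neighbour held 4746 peaks, 5.67% lower and 3.98% higher, with a median of -0.15, so each list's shares stand beside those of deserts at large. Without wild-type replicate 2 the lower calls of these lists numbered 4, 6, 6 and 2 in the same order, and without wild-type replicate 1 they numbered 5, 6, 17 and 7.

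Mef2c, a transcription factor gene needed for heart muscle development, flanked a desert with 6 lower and 0 higher calls. It held 15 peaks, between Cetn3 and Mef2c on chromosome 13, and their summed level was 116 and 141 CPM in the wild type and 84.9 and 85.3 CPM in the mutant. The peak with the smallest p, at 82265665 to 82266089, had 5.77 and 6.35 CPM against 1.58 and 2.71 CPM (log2 fold change -1.50, SE 0.33, adjusted p = 0.0122). Both mutant libraries were lower throughout these calls, but 0 calls were made without wild-type replicate 2, 3 without replicate 1 and 1 with DESeq2. Around Tbx3, a T-box gene of the conduction system, 4 of 19 peaks fell and 1 rose, with 0 lower calls without either wild-type library or with DESeq2.

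Beside Irx3 and Irx5, homeobox genes of the ventricle and its conduction system, there were strong changes of opposite sign. At chromosome 8, 92008720 to 92009352, levels were 18.0 and 14.9 CPM in the wild type and 7.06 and 5.87 CPM in the mutant (log2 fold change -1.35, SE 0.23, adjusted p = 0.00242). At 92127652 to 92127981 they were 1.02 and 0.929 CPM against 6.51 and 4.04 CPM (log2 fold change 2.43, SE 0.38, adjusted p = 0.00159). Both calls held whichever library was left out. The 2 deserts beside Bmp4 held 16 peaks, of which 4 rose (median log2 fold change of the 16, 0.52). In the one between Ddhd1 and Bmp4, levels at 45850598 to 45850916 were 0.905 and 0.413 CPM against 4.08 and 4.04 CPM, and at 45920714 to 45921042 they were 0.905 and 0.981 CPM against 3.89 and 5.17 CPM. Both peaks were weak in the wild type and higher in both mutant libraries, and both were called in each fit that left out a library. Beside Nrg1, which encodes the growth factor neuregulin, both desert peaks were called higher, but one had 1.34 CPM in mutant replicate 1 and 10.3 CPM in replicate 2.

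Of the vascular genes, Ets1, an endothelial and lymphoid transcription factor gene, had 4 of 25 desert peaks lower and a median log2 fold change of -0.49. The peak with the smallest p, on chromosome 9 at 32937349 to 32937961, had 15.2 and 13.7 CPM in the wild type and 6.81 and 4.86 CPM in the mutant (log2 fold change -1.31, SE 0.24, adjusted p = 0.00418). A neighbour at 32933032 to 32934061 had 40.2 and 32.3 CPM against 18.1 and 21.1 CPM. Summed over the 25 peaks, the wild type had 291 and 267 CPM and the mutant 185 and 198 CPM. Foxo1 had 3 of 25 peaks lower, and Sox17, Cdh5, Klf4, Efnb2 and Meox2 had 1 each, of 5, 9, 30, 20 and 5. At an unadjusted p under 0.05, edgeR gave 3 higher and 42 lower peaks of the 130 in the vascular list. The same cut gave 680 higher and 1147 lower of all 5764 desert peaks, and 10016 higher and 9170 lower of all 87948 peaks. DESeq2 gave 0 higher and 10 lower calls in the vascular list. Over the whole list the lower calls numbered 6 without either wild-type library, 22, with 1 higher call, when mutant replicate 2 was left out, and 17 when mutant replicate 1 was; at Ets1 they numbered 1 without wild-type replicate 1.

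Endothelial markers are given beside that list. At gene ends, 7 of 8 endothelial markers had a peak (Erg had none), and their summed level was 138 and 96.4 CPM in the wild type and 97.1 and 93.3 CPM in the mutant, with 1 marker lower. Wild-type replicate 1 was the highest library. Fibroblast markers summed to 76.9 to 84.8 CPM in the wild type and 79.2 to 94.4 CPM in the mutant, and mural markers to 61.3 to 63.0 and 70.0 to 73.4 CPM. Cardiomyocyte markers summed to 736 and 699 CPM in the wild type and 907 and 791 CPM in the mutant, with 0 called in either direction. The part of cell composition in the desert results was not tested.

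Of the 1405 desert peaks inside noncoding genes 2.63% were called higher and 5.05% lower, against 4.40% and 6.38% of the 4359 in no gene of any type. The 711 peaks more than 100 kb from every gene type had 7.17% higher and 9.42% lower. Inside Mir99ahg, the host of miR-99a, let-7c and miR-125b shown earlier, 2 of 13 desert peaks rose. The stronger, on chromosome 16 at 77494049 to 77494604, had 5.15 and 4.85 CPM in the wild type and 17.3 and 14.3 CPM in the mutant (log2 fold change 1.66, SE 0.23, adjusted p = 0.000649), and it was called whichever library was left out. The other, at 77479840 to 77480170, had 1.81 and 1.60 CPM against 5.72 and 3.98 CPM (adjusted p = 0.0161), and this call was lost without either wild-type library or without mutant replicate 1. The stronger peak lay more than 100 kb before the start of the miR-99a sequence on the same plus strand. The peak over the host's own promoter window, at 77328934 to 77330441, had 19.1 and 19.9 CPM against 25.8 and 21.3 CPM and did not pass (adjusted p = 0.387). Inside Mir100hg, the host of miR-100 and of the same miR-125b, the peak on chromosome 9 at 41595649 to 41596235 had 4.58 and 4.33 CPM against 11.6 and 9.65 CPM (log2 fold change 1.25, SE 0.25, adjusted p = 0.00723; 0.0688 without wild-type replicate 2). None of its other 13 desert peaks passed, and the miRNAs themselves were not measured.

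Some desert peaks covered promoters of noncoding genes. Of the 146 desert peaks that overlapped a RefSeq promoter window (159 windows), 5 fell (3.42%; 2.45% of all peaks) and 2 rose (1.37%; 3.05% of all peaks), with a median log2 fold change of -0.00. The peak over the 4732465J04Rik window had 67.2 and 76.5 CPM in the wild type and 41.7 and 44.7 CPM in the mutant (log2 fold change -0.73, SE 0.14, adjusted p = 0.0052). The Gm33321 peak had 6.90 and 4.70 CPM against 15.1 and 12.8 CPM (log2 fold change 1.27, SE 0.25, adjusted p = 0.00583). The Gm33699 peak had 13.1 and 10.4 CPM against 5.78 and 6.94 CPM (adjusted p = 0.0365). These 3 peaks were picked because they were called, a choice that favours genotypes without overlap. Among all peaks, both mutant libraries lay below both wild-type libraries in 25.7% and above both in 25.8%. The genotypes did not overlap at any of the 3, and all 3 calls were lost without wild-type replicate 2, the Gm33699 call also without wild-type replicate 1 or mutant replicate 1. Motifs were searched on both strands in all 32851 promoter windows and in the 159 that overlapped a desert peak (desert windows). Those 159 belong to noncoding genes, some with several windows. The full set was not chosen for overlap with a peak, so the sets differ in more than position. The AP-1 letters TGANTCA occurred in 7.81% of all windows and 9.43% of desert windows. For GGAATG, the core bound by TEAD factors, the shares were 14.7% and 26.4%. For AGATAA, bound by GATA factors, they were 11.2% and 18.9%. The GC box letters GGGCGG were found in 35.7% and 13.2%. The CCAAT box was found in 37.4% and 27.7%. The median GC content was 52.7% over all windows and 48.3% in the desert windows.

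The peaks farthest from genes and those at the limit are given last. The farthest peak lay 2188 kb from a protein-coding gene on chromosome 18, between Celf4 and Pik3c3, with 4.13 and 4.39 CPM in the wild type and 4.38 and 3.79 CPM in the mutant. It showed no detectable difference (log2 fold change -0.06, SE 0.30). Of the 5 farthest peaks 1 was called, between Cdh6 and Cdh9 on chromosome 15, with 14 and 12.3 CPM against 20.9 and 21.1 CPM (adjusted p = 0.04); it was not called without either wild-type library. The 3 peaks just inside the limit, at 100.006 to 100.058 kb, had log2 fold changes of 0.38, -0.36 and 0.46, and the 3 just outside, at 99.925 to 99.992 kb, had -0.52, -0.30 and 0.10. The gene table leaves out antigen-receptor segments as protein-coding genes, so 4 desert peaks lay in the Igh locus, of which 3 were called higher.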

How the data were processed

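Heart tissue at postnatal day 14 gave 2 wild-type and 2 Carm1 mutant libraries, grouped by sample titles. The authors deposited raw counts per peak, with no normalization, per the file headers. FastQC and Bowtie2 without versions and build mm10 are named in the submitters' processing notes; which peak caller, read filters, duplicate handling, transposase shift and peak merging were used is not stated in those sources, and any of them could alter the set of desert regions. Coordinates are as deposited, and widths are end minus start.

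Peaks were placed with a RefSeq gene table of GRCm38.p6 (21887 protein-coding genes on the chromosomes with peaks), the assembly of mm10. Counts were fitted over all 87948 peaks with edgeR 4.0.16 in R 4.3.3 (TMM, filterByExpr, which removed 0 peaks, quasi-likelihood test with a genotype term alone, 2 residual degrees of freedom, Benjamini-Hochberg adjusted p under 0.05); the common biological coefficient of variation was 0.166. Log2 CPM used a prior count of 1. DESeq2 1.42.0, limma 3.58.1 voom, other scalings and filters, a replicate block and leaving out each library were alternatives. On simulated counts, 67, 67 and 66 peaks were changed 1.5, 2 and 3 times, and the fit recovered 4.48%, 28.4% and 81.8% of them. In that setting calls favoured large changes. Only 82 peaks were called there, far fewer than in the data, so these shares do not carry over.

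Named peaks were the 12 higher and 12 lower called peaks of smallest p without overlap, at most 1 per desert, the 5 strongest, the 5 farthest, 3 on each side of the distance limit, and the deserts with most peaks or calls; other peaks were named after their values were seen. The members and lists were chosen with earlier results of these data known. The sequences of the desert peaks themselves were not used here, because they need the genome. Repeat content and mappability of the peaks, the strongest included, were therefore not checked. Counts of the 2 libraries of a genotype differed beyond Poisson sampling (chi-square over degrees of freedom 4.09 and 5.76).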

Additional observations from a re-analysis of the deposited data

How the results depend on the processing

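The desert median log2 fold change was below 0 under each alternative. The lower share in deserts exceeded that over all peaks in each fit, and so did the higher share. The excess of lower over higher calls was smaller with scaling that followed the level of a peak (trended offsets). That fit called 280 desert peaks higher (4.86%) and 308 lower (5.34%), at a median of -0.13. Over all peaks it called 3.73% higher and 2.47% lower. DESeq2 called 2.13% of desert peaks higher and 2.81% lower (all peaks 1.55% and 1.15%). A test against a fold of 1.2 gave 2.15% and 3.12% (1.53% and 1.16%), and an adjusted p of 0.10 gave 6.45% and 10.2% (5.49% and 4.69%). Lower calls reached 9.40%, with a median of -0.26, beyond 500 kb. DESeq2 called 20 of these 521 peaks lower and 10 higher, and their median ran from -0.33 to -0.15 when 1 library was left out. Peaks over 100 kb from every gene type had 7.17% higher and 9.42% lower. Leaving out 1 library gave 1.13% to 5.71% higher and 1.2% to 10.7% lower in deserts, medians of -0.25 to -0.088, and 0.730% to 4.90% higher and 0.414% to 4.70% lower over all peaks. Fewer samples entered these fits, and the lone library of a group was assumed to vary like the other group.

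With the replicate number as a block, 7.11% of desert peaks were higher and 11.1% lower (all peaks 5.95% and 5.11%); across 87948 peaks the difference between replicates 1 and 2 in the wild type correlated at r = 0.108 with that in the mutant. The libraries share only a number, so this pairing is not part of the design.

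Leaving out the strongest peak, the peaks above 32 CPM or the chromosome 3 start, chosen after seeing the data, kept the desert shares within 3.6% to 3.96% higher and 6.07% to 6.11% lower. Among 48 named peaks, 4 reversed in a fit without 1 library, none of them called: over these fits the log2 fold change ran from -0.17 to 0.040 at the chromosome 18 peak at 28077662, -0.21 to 0.37 at the one at 33336828, -1.45 to 0.90 at 60042799 on chromosome 5 and -1.03 to 0.094 at 78079844 on chromosome 7. The cause was not tested.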
